A study of Mus musculus with 4 samples.

Results

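The 9 genes described here encode enzymes of the tricarboxylic acid (TCA) cycle and of the step that brings pyruvate into it. They were taken by name from the table of gene counts and are Idh1, Idh2, Idh3a, Idh3b, Idh3g, Cs, Mdh2, Pdha1 and Pdp2, 9 of the 22554 genes in the table. RNA was sequenced from group 2 innate lymphoid cells (ILC2s), sorted from the lungs of BALB/c mice aged 6 weeks and cultured with IL-2, IL-7 and IL-33. The 2 control libraries came from cells given vehicle and the 2 other libraries came from cells given compound 5D, a small molecule that blocks the Orai calcium channels. The labels name separate samples but not separate mice, so the p-values measure the spread between these samples, which may be technical. The labels and the methods of the study differ on the length of the culture and on the amount of RNA used.

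In the mitochondrion, pyruvate dehydrogenase turns pyruvate into acetyl-CoA, which citrate synthase joins to oxaloacetate to make citrate. Citrate is rearranged to isocitrate, and isocitrate dehydrogenases then release carbon dioxide and pass electrons to NAD+ or NADP+, while malate dehydrogenase closes the cycle by remaking oxaloacetate. Calcium inside mitochondria is known to stimulate this route at pyruvate dehydrogenase phosphatase, at the NAD+-dependent isocitrate dehydrogenase and at the 2-oxoglutarate dehydrogenase. Those are effects on enzyme activity, whereas the values below are RNA levels.

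Each library held between 20096555 and 28697265 counts on genes, and the deeper libraries were those with 5D. All 9 genes passed the filter on low counts and were among the 17650 genes tested with edgeR's quasi-likelihood test. All 12 markers in a list for ILC2s were tested, with a summed level of 10849 to 11039 normalized CPM (counts scaled to a common library size after upper quartile scaling) with vehicle and 10184 to 10625 with 5D. Of these 12, 4 were lower at an unadjusted p-value under 0.05 (Il5, Il2ra, Klrg1 and Thy1), against 3.84% of all genes tested, and 1 was higher (Il1rl1), against 3.5%. Among the markers of other cells, 1 of 4 tested for mast cells and basophils was higher at that p-value (Tpsb2). Of the 6 structural markers with a row, 2 were tested, and 1 of these 2 was lower (Pecam1). These names were chosen after their values were seen. Markers of other cells were far lower. The 7 T cell markers with a row summed to 89.9 and 98.2 normalized CPM with vehicle and to 97.2 and 98.0 with 5D, most of it Trbc1, with Cd4 at 0 in all libraries. Markers of structural lung cells summed to 46.8 to 49.9 with vehicle and 43.5 to 45.5 with 5D, mostly Epcam, with Scgb1a1 and Col3a1 at 0. B cell markers reached 13.6 to 19.4, with 2 of 5 in the table, and the highest sums were 3.95 for myeloid cells, 10.6 for mast cells and basophils and 1.81 for NK cells and ILC1s. The ILC2 and the structural sums did not overlap between groups. The highest of the ILC2 markers was the cytokine gene Il5, at a mean of 4597 normalized CPM over all libraries, so the ILC2 sum depends strongly on Il5. The part of these sums in the results below was not tested.

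Among the 9 genes, Pdp2 and Idh1 were measured at lower levels in ILC2s cultured with 5D, Idh3b at a slightly higher level, and the enzymes that carry most of the RNA of this group, Mdh2 and Cs, at levels close to vehicle, with 95% intervals of -4.83% to 7.52% for Mdh2 and -8.30% to 4.58% for Cs. After adjustment over all genes tested, 0 of the 9 passed 0.05 with edgeR, against 0.0963% of all genes tested, and 0 passed with limma-voom or DESeq2 (the latter gave no adjusted p-value for Idh1 and Pdp2). At an unadjusted p-value under 0.05, 2 of the 9 were lower with 5D (Pdp2 and Idh1), where 3.84% of all genes tested were, and 1 was higher (Idh3b), where 3.5% were. The pair of 5D values was below the vehicle pair for 2 of the 9 (18.8% of all genes) and above it for 2, Idh2 and Idh3b (18.7% of all genes), and the groups overlapped for the other 5. The median log2 fold change of the 9 was -0.013, and that of all genes tested was -0.0016. Idh1, Idh3b and Pdp2 are genes the study shows from these same libraries, so their low p-values are not independent evidence. In RNA from a whole culture, fewer cells of one type and less RNA per cell cannot be told apart.

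**Figure D1:**
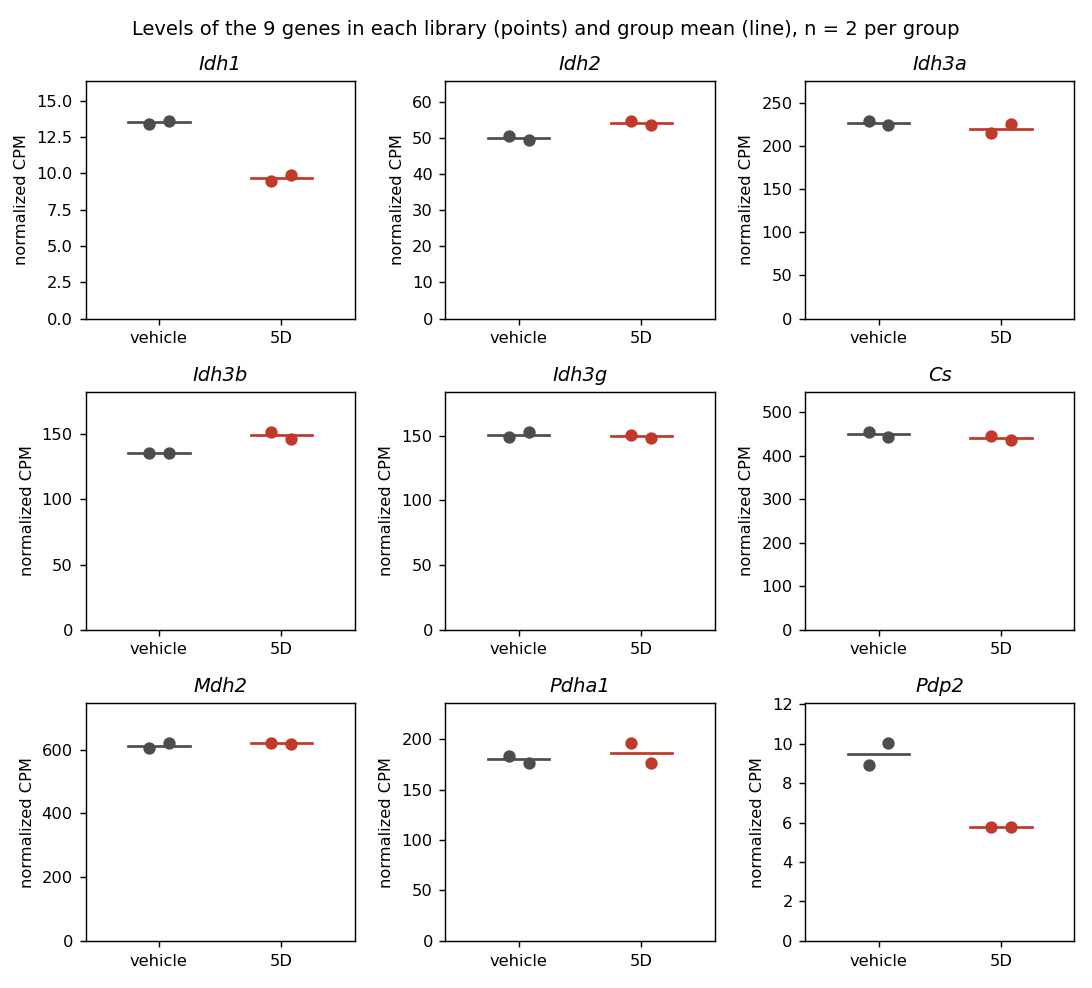
Normalized CPM (y axis, starting at 0) of the 9 genes in each library, as points, with the group mean as a line, for vehicle and 5D with 2 libraries each. The groups stand clear of each other for Idh1 and Pdp2 (5D lower) and by a narrow margin for Idh2 and Idh3b (5D higher), and overlap for the other 5 genes.

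Upstream sequence is shown for Idh1, Pdp2 and Idh3b, the 3 genes with an unadjusted p-value under 0.05, from RefSeq's promoter table (GRCm38.p6, the mm10 reference strain, not BALB/c). Each is written on the strand of its gene and ends just before the first base of the gene in GENCODE M21. The RefSeq start lies further downstream for all 3. The stretches are chr1:65186501-65186729 (minus strand), chr8:104591222-104591450 (plus strand) and chr2:130284548-130284701 (minus strand). Capitals mark matches to the motifs given below.
Idh1: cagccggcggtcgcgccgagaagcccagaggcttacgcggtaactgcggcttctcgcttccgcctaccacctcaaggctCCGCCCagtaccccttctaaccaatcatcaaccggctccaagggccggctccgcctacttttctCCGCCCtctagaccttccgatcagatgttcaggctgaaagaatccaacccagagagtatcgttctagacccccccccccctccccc
Pdp2: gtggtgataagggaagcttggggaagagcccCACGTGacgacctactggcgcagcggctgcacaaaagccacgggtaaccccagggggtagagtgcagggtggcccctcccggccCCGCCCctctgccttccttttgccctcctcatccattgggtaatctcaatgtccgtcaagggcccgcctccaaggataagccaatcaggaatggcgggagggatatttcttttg
Idh3b: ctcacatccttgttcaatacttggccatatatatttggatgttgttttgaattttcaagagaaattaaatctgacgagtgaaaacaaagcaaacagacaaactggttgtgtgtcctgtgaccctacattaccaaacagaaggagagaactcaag

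In windows of 250 bases before a RefSeq start, on both strands, the SP1 letters GGGCGG were in 32.7% of the 32851 windows of the table. They were in 6 of 9 windows of these genes, those of Idh1 (in each of its 2 windows), Idh2, Mdh2, Cs and Pdp2. The matches of Idh2 and a whole window of Idh1 lie downstream of the start of their gene in GENCODE M21. The HIF letters ACGTG were in 16.6% of all windows and in those of Pdp2, where matches on both strands overlap to spell CACGTG, and of Idh3g. The NFAT letters GGAAAA were in 20.4% of all windows and in that of Cs, and the YY1 letters AAGATGGC in 1.56% and in that of Idh3g. The letters for NRF1 (GCATGCGC, 2.26% of all windows), GABPA (CCGGAAGT, 2.88%) and ERR (AAGGTCA, 4.08%) were in 0 of the 9. Idh3b and Pdha1 had none of these letters, and Idh3a has no entry.

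Isocitrate dehydrogenases that use NADP+ are encoded by Idh1, whose enzyme works in the cytosol and peroxisomes, and by Idh2, whose enzyme works in mitochondria. Both make 2-oxoglutarate and NADPH, the reducing agent for antioxidant defence and lipid synthesis. Idh1 (ENSMUSG00000025950.16, chromosome 1 of mm10 from 65158616 to 65186500, minus strand, 9 exons in its longest coding transcript) had 312 and 273 counts with vehicle and 258 and 282 with 5D. In normalized CPM this was 13.4 and 13.6 with vehicle and 9.51 and 9.86 with 5D. Although the raw counts are alike in number, the 5D libraries were the deeper ones, and after scaling both 5D values were the lower pair. The means were 13.5 ± 0.148 and 9.68 ± 0.252 normalized CPM (SD, n = 2 each). A log2 fold change of -0.48 was fitted (standard error 0.15, 95% interval -0.82 to -0.14), with an unadjusted p-value of 0.00937, the 309th smallest of all genes tested, and an adjusted p-value of 0.532 from edgeR. The SDs were smaller than the counting error of a single library, which was 5.66% to 6.23%, so the spread of 2 libraries understates the error of this gene.

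Idh2 (ENSMUSG00000030541.16, chromosome 7 from 80094846 to 80115392, minus strand, 11 exons) had 50.4 and 49.4 normalized CPM with vehicle and 54.8 and 53.4 with 5D. Both 5D libraries were above both vehicle libraries, the opposite order to Idh1. Its log2 fold change was 0.12 (standard error 0.084, 95% interval -0.067 to 0.30, adjusted p = 0.829 from edgeR). Within a library, the log2 ratio of Idh1 to Idh2 counts does not depend on the scaling. It was -1.91 and -1.85 with vehicle and -2.52 and -2.44 with 5D, a difference of -0.60. The groups did not overlap, which in an exact permutation test of 2 libraries against 2 gives p = 0.333 (two-sided), the smallest value this design allows, and 0.417 after adjustment over 5 ratios. This lack of overlap follows from the opposite orders of Idh1 and Idh2, so it adds no separate evidence. Per transcript length, as TPM, the level of a gene per base of its exons scaled to the same total in every library, Idh1 took 19.9% and 20.5% of the summed level of Idh1 and Idh2 with vehicle and 14.0% and 14.7% with 5D. The cytosolic form was thus the minor one in all 4 libraries. The summed share of Idh1 and Idh2 among the 5 isocitrate dehydrogenase genes was 14.6% to 14.8% of TPM with vehicle and 14.6% to 14.7% with 5D, ranges that overlap.

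The NAD+-dependent isocitrate dehydrogenase is the form of the TCA cycle proper. It is built of a catalytic alpha subunit (Idh3a) paired with beta (Idh3b) and gamma (Idh3g) subunits, the gamma subunit being the regulatory one. Idh3a (ENSMUSG00000032279.11, chromosome 9 from 54586334 to 54604661, plus strand) had 229 and 225 normalized CPM with vehicle and 215 and 225 with 5D. One 5D library lay within the vehicle range. Its fitted log2 difference was -0.045 (standard error 0.052, 95% interval -0.16 to 0.069, adjusted p = 0.909 from edgeR).

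Idh3b (ENSMUSG00000027406.12, chromosome 2 from 130279309 to 130284547, minus strand) had 136 and 135 normalized CPM with vehicle and 152 and 146 with 5D. Both 5D libraries were the higher, and the fitted change was 9.89%. On the log2 scale this was 0.14 (standard error 0.058, 95% interval 0.0087 to 0.26), with an unadjusted p-value of 0.0383, the 1046th smallest of all genes, and an adjusted p-value of 0.641 from edgeR. The unadjusted p-value was between 0.0535 and 0.193 when any single library was left out, 0.0512 with DESeq2 and 0.0581 when the upper quartile was computed on filtered genes. Exons of Idh3b and of Nop56, on the opposite strand, share 5 bases where the genes' 3' ends meet, and Nop56 had 302 to 324 normalized CPM with vehicle and 279 to 295 with 5D, the opposite order to Idh3b.

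Idh3g (ENSMUSG00000002010.17, chromosome X from 73778963 to 73786897, minus strand) had 149 and 153 normalized CPM with vehicle and 151 and 148 with 5D, groups that overlap. For Idh3g the fitted log2 difference was -0.013 (standard error 0.057, 95% interval -0.14 to 0.11, adjusted p = 0.987 from edgeR). The subunits therefore did not all lie on one side. The log2 ratio of Idh3b to Idh3a counts was -0.76 and -0.73 with vehicle and -0.50 and -0.62 with 5D, a difference of 0.18 with no overlap (exact permutation test, p = 0.333, the smallest possible). That of Idh3g to Idh3a was -0.62 and -0.56 with vehicle and -0.51 and -0.61 with 5D, a difference of 0.032 with overlap (exact permutation test, p = 0.667). In TPM, Idh3b was 28.4% and 28.2% of the summed level of the 3 subunits with vehicle and 31.1% and 30.1% with 5D.

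The log2 ratio of Idh1 to Idh3b counts, which sets the lower isocitrate dehydrogenase beside the higher, was -3.34 and -3.31 with vehicle and -3.99 and -3.89 with 5D. The difference was -0.62, without overlap (exact permutation test, p = 0.333, the smallest possible). This pair was listed with the earlier results known, so its size is a description.

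**Figure D2:**
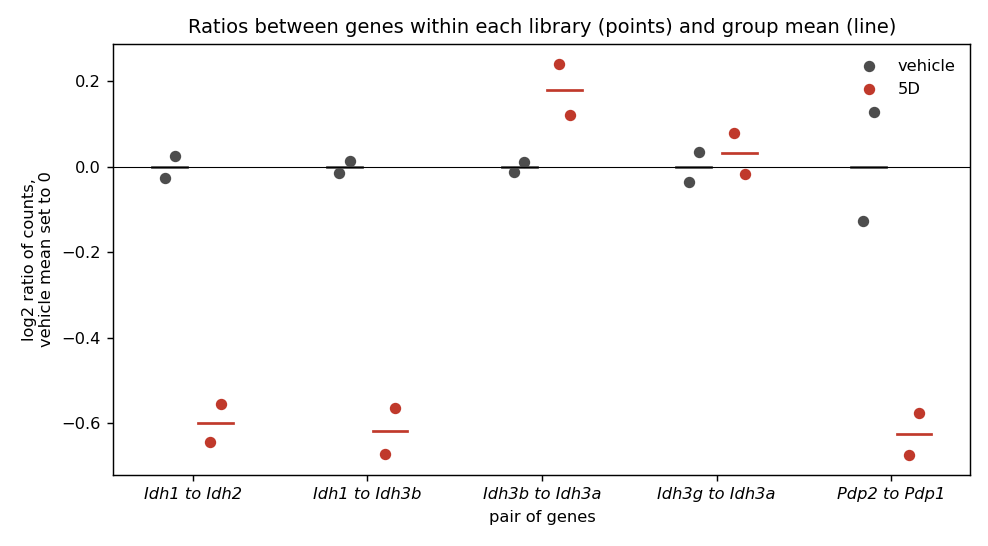
log2 ratio of counts between 2 genes within each library (points) with the group mean (line), each pair shifted so that its vehicle mean is 0 (y axis), for vehicle and 5D with 2 libraries each. The 5D points of Idh1 to Idh2, Idh1 to Idh3b and Pdp2 to Pdp1 lie near -0.60, -0.62 and -0.63, those of Idh3b to Idh3a lie above the vehicle points, and those of Idh3g to Idh3a overlap them.

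Citrate synthase, encoded by Cs (ENSMUSG00000005683.8, chromosome 10 from 128337734 to 128362479, plus strand), makes the first product of the cycle. It had 455 and 443 normalized CPM with vehicle and 444 and 435 with 5D, and the groups overlapped. Its fitted log2 difference was -0.030 (95% interval -0.13 to 0.065, standard error 0.043, adjusted p = 0.933 from edgeR). Mdh2 (ENSMUSG00000019179.10, chromosome 5 from 135778480 to 135790398, plus strand), the mitochondrial malate dehydrogenase, had 605 and 621 normalized CPM with vehicle and 621 and 619 with 5D. One vehicle library lay above both 5D libraries and the other below them. Its log2 fold change was 0.017 (standard error 0.040, 95% interval -0.071 to 0.10, adjusted p = 0.970 from edgeR). With 8865 to 17707 counts per library these 2 genes were the most precisely measured of the 9, with counting errors of 0.751% to 1.06%.

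At the entry of pyruvate, Pdha1 encodes the catalytic alpha subunit of pyruvate dehydrogenase, which is switched off by phosphorylation, and Pdp2 encodes one of the phosphatases that switch it on again. Pdp2 is the isoform that is not stimulated by calcium, while Pdp1 is the one that is. Pdha1 (ENSMUSG00000031299.10, chromosome X from 160122209 to 160138413, minus strand) had 184 and 176 normalized CPM with vehicle and 196 and 177 with 5D, so that one 5D library lay between the vehicle libraries. Its fitted log2 difference was 0.050 (standard error 0.063, 95% interval -0.088 to 0.19, adjusted p = 0.921 from edgeR). It was -0.033 without 5D replicate 1 and 0.12 without 5D replicate 2. Exons of Map3k15 on the opposite strand cover 603 bases of Pdha1, 16.2% of its exons, and Map3k15 had only 0.280 to 0.689 normalized CPM.

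Pdp2 (ENSMUSG00000048371.8, chromosome 8 from 104591451 to 104599026, plus strand, 2 exons) had the largest difference of the 9 genes and the lowest level. Its libraries held 207 and 201 counts with vehicle and 157 and 165 with 5D, which is 8.91 and 10.0 normalized CPM with vehicle and 5.78 and 5.77 with 5D. The 5D values formed the lower pair, also in raw counts, although the 5D libraries were deeper. The means were 9.48 ± 0.800 and 5.78 ± 0.0101 normalized CPM (SD, n = 2 each). A log2 fold change of -0.71 was fitted (standard error 0.19, 95% interval -1.13 to -0.29). As a percentage this is -39.0%, with an interval from -54.3% to -18.4%. The unadjusted p-value of 0.00313 was the 125th smallest of all genes tested, and the adjusted p-value was 0.440 from edgeR. The near equality of the 5D values is closer than their counting errors of 7.98% and 7.78% would give on average, so the SD of the 5D pair understates the error of this gene. The error of the fit draws also on the spread of other genes and is not measured on Pdp2 alone.

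Pdp1, the calcium-stimulated isoform, had 12.5 and 11.8 normalized CPM with vehicle and 11.9 and 11.1 with 5D, groups that overlap, and a log2 fold change of -0.084 (standard error 0.16, 95% interval -0.42 to 0.26, adjusted p = 0.954 from edgeR). The intervals of Pdp1 and Pdp2 overlap between -0.42 and -0.29. The log2 ratio of Pdp2 to Pdp1 counts was -0.49 and -0.23 with vehicle and -1.03 and -0.94 with 5D, a difference of -0.63 without overlap (exact permutation test, p = 0.333, the smallest possible). Per length, Pdp2 was 36.1% and 40.3% of the summed TPM of the 2 phosphatases with vehicle and 27.9% and 29.3% with 5D.

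**Figure D3:**
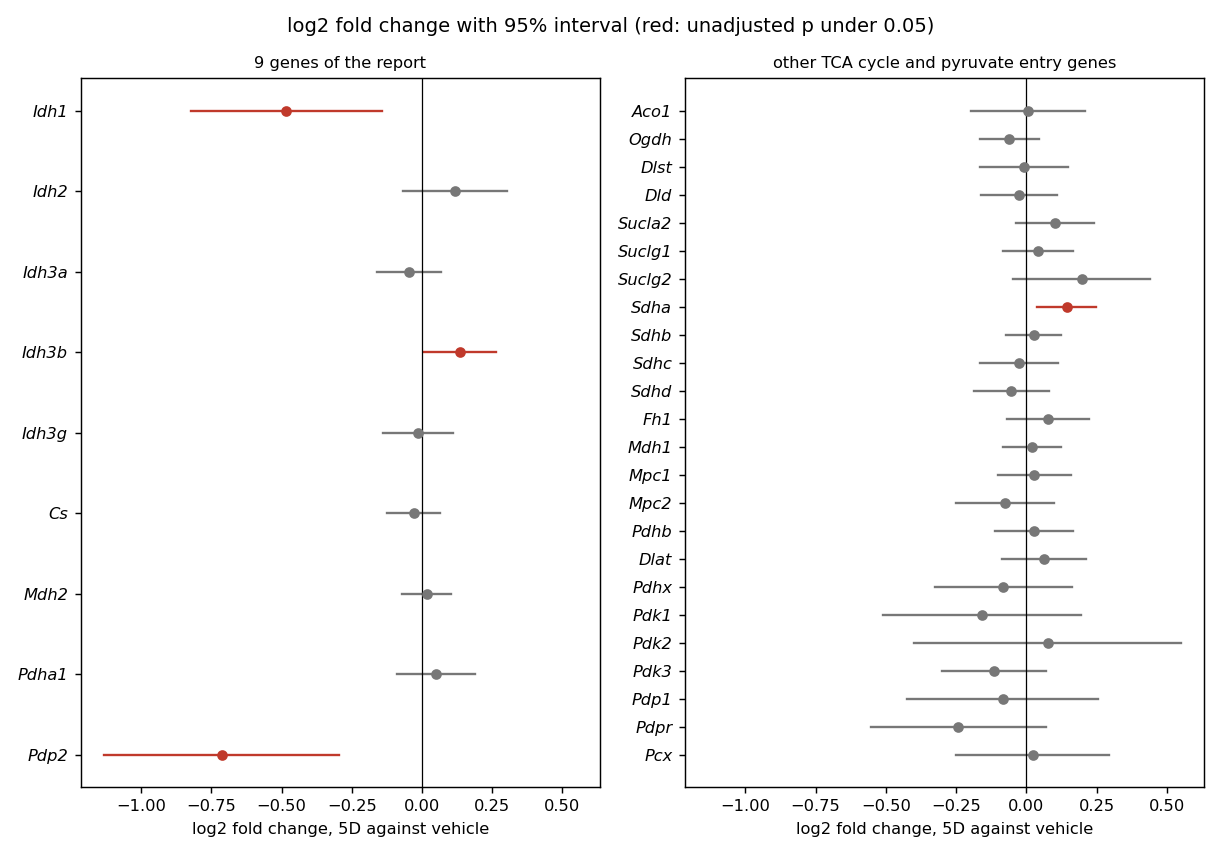
log2 fold change of 5D against vehicle (x axis, points) with 95% intervals (lines) from edgeR, for the 9 genes on the left and for other genes of the TCA cycle and pyruvate entry on the right, red where the unadjusted p-value is under 0.05. Pdp2 and Idh1 lie at -0.71 and -0.48, Idh3b at 0.14, and on the right only Sdha, at 0.14, is red.

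The other genes of the route were taken from lists of 14 TCA cycle genes, 12 genes of pyruvate entry and 15 genes that exchange metabolites with the cycle. Of these 41 genes 40 were tested (Pdk4 was not analysed here), and 0 passed an adjusted p-value of 0.05 with edgeR, limma-voom or DESeq2. DESeq2 gave no adjusted p-value for Idh1 and Pdp2, so genes of these lists with fewer counts may have none either. At an unadjusted p-value under 0.05, 1 was lower (Slc25a1) and 1 was higher (Sdha). That is a share near the 3.84% and 3.5% of all genes tested. The median log2 fold change of the 40 was -0.0063, with 21 below 0 and 19 above. The 5D pair was below the vehicle pair for 6 of the 40, against 18.8% of all genes tested, and above it for 8, against 18.7%, and the groups overlapped for the other 26.

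Sdha, the flavoprotein subunit of succinate dehydrogenase, had 295 and 295 normalized CPM with vehicle and 333 and 319 with 5D. Its log2 fold change of 0.14 (standard error 0.048, unadjusted p = 0.0113, adjusted p = 0.550 from edgeR) was close to that of Idh3b. It is another gene that the study shows from these libraries. The other subunits, Sdhb, Sdhc and Sdhd, had log2 fold changes of 0.027, -0.025 and -0.053 with groups that overlapped. Slc25a1, which exports citrate from mitochondria, had 73.5 and 75.4 normalized CPM with vehicle and 67.8 and 63.2 with 5D. For Slc25a1 the fitted log2 difference was -0.18 (standard error 0.077, unadjusted p = 0.0347, adjusted p = 0.633 from edgeR).

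The named partners and paralogs of the 9 genes did not pass an unadjusted p-value of 0.05. Ogdh, the calcium-sensitive 2-oxoglutarate dehydrogenase that follows isocitrate dehydrogenase, had 333 and 317 normalized CPM with vehicle and 309 and 315 with 5D, with a log2 fold change of -0.060 (95% interval -0.17 to 0.046). The 5D libraries were the lower pair, by less than the interval can separate from 0. Mdh1, the cytosolic paralog of Mdh2, had a log2 fold change of 0.020 (95% interval -0.083 to 0.12), and Pdhb, the beta subunit that pairs with Pdha1, had 0.027 (95% interval -0.11 to 0.16), both with groups that overlapped.

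**Figure D4:**
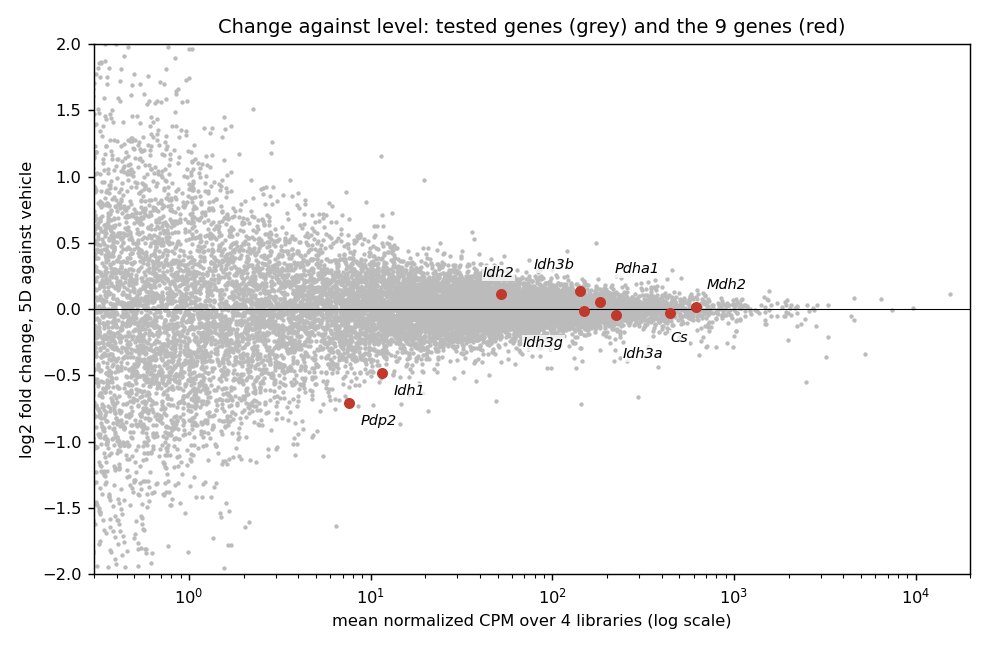
log2 fold change of 5D against vehicle (y axis) against mean normalized CPM over the 4 libraries (x axis, log scale) for the genes tested (grey) and the 9 genes (red). A total of 2895 of 17650 genes lie outside the axes. Pdp2 and Idh1, the 2 least abundant of the 9, lie near the lower edge of the grey cloud at their level, and the other 7 lie within 0.14 of 0.

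Between genes, levels were compared in TPM. With vehicle the order was Mdh2 (492 ± 3.55 TPM, SD, n = 2), Cs (222 ± 6.75), Idh3g (160 ± 1.32), Pdha1 (138 ± 5.42), Idh3a (128 ± 3.30), Idh3b (113 ± 1.56), Idh2 (55.1 ± 1.42), Idh1 (14.0 ± 0.0097) and Pdp2 (4.76 ± 0.347). No neighbours in this order overlapped in their vehicle libraries. With 5D, Idh3b (123 and 129 TPM) overlapped Idh3a (123 and 128 TPM), while the rest of the order was the same, with Idh3g at 157 to 163 TPM and Pdha1 at 136 to 153 TPM. Mdh2 lay above 96.1% of the genes tested by its vehicle level, whereas Idh1 lay above 58.3% and Pdp2 above 43.4%. The middle of the order depends on the length assumed for a gene. With the longest transcript of any kind, the vehicle levels were 191 TPM for Idh3a, 157 for Idh3g, 144 for Idh3b and 137 for Pdha1, so that Idh3a and not Idh3g led these 4. With the longest protein-coding transcript, a setting chosen after seeing the data, the vehicle levels were 225 TPM for Idh3g, 174 for Idh3a, 166 for Idh3b and 125 for Pdha1, which puts Idh3g first. Pdha1 was last of the 4 in both. Mdh2 (828 and 835 TPM) and Cs (324 and 304) stayed highest with either length, and Idh2 (60.4 and 56.7), Idh1 (12.8 and 11.7) and Pdp2 (3.61 and 3.30) lowest.

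**Figure D5:**
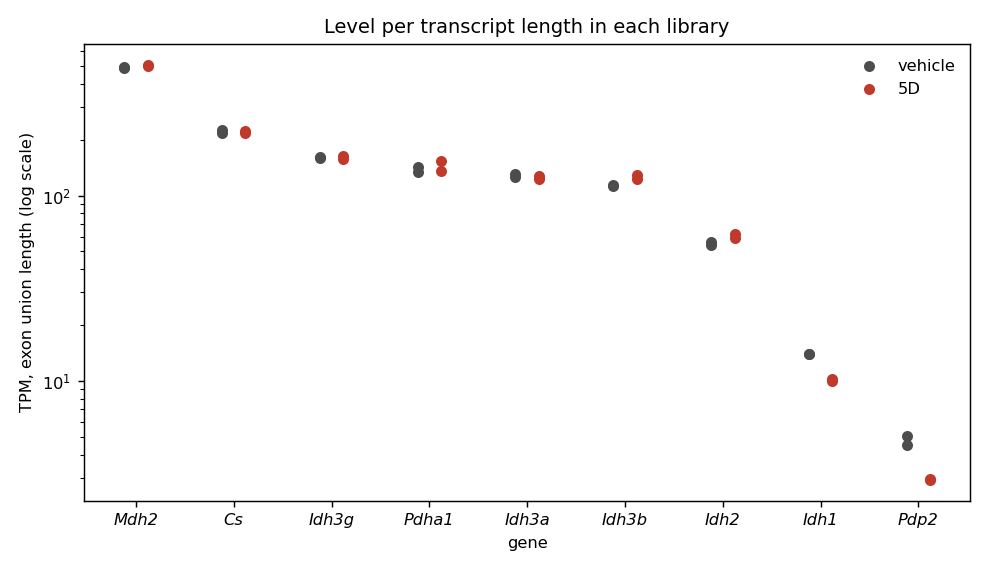
TPM over the union of exons (y axis, log scale) of the 9 genes in each vehicle and 5D library (points), ordered by vehicle level. Levels run from 492 TPM for Mdh2 to 4.76 for Pdp2 with vehicle, and the groups separate visibly for Idh1 and Pdp2 at the low end.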

How the data were processed

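RNA-seq data of 4 libraries were used, 2 of vehicle-treated and 2 of 5D-treated lung ILC2s, grouped by their labels. The authors aligned reads with STAR (version 2.6.1 in the submitters' processing notes) to mm10 and quantified genes with GENCODE M21 in Partek, and they deposited estimated counts before normalization. Between 51.7% and 54.8% of the values of a library were whole within 1e-06, and all were rounded here. The notes also name CASAVA 1.8.2. Whether strand was used is not given in the sources used here.

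Library sizes were scaled by upper quartiles computed on the full table, and genes with a mean normalized count under 1 or a sum under 10 were removed, which left 17650. edgeR 4.0.16 (R 4.3.3) tested 5D against vehicle by quasi-likelihood, two-sided, without covariates, with p-values adjusted by Benjamini-Hochberg across every tested gene. The Gene Set Analysis of Partek was not run here. The standard error is the log2 fold change over the square root of F. TPM used the GENCODE M21 exon union, matched by name and position for 21983 genes. Ratios used a pseudocount of 0.5. Alternatives were run with limma 3.58.1 and DESeq2 1.42.0. Near-identical transcripts (150 nt at 95% identity or more) were searched with BLAST 2.17.0. Only Map3k15 matched a member, Pdha1, whose exons it overlaps on the opposite strand. The code was tested on simulated data. Counting errors cover counting only.

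The members and lists were chosen with earlier results of these data known. The genes named are the 9 members, genes of the 3 other lists with an unadjusted p-value under 0.05, and Pdp1, Mdh1, Ogdh and Pdhb as partners or paralogs. 1 further gene of that rule is not reported here. Sdhb, Sdhc and Sdhd were named after their values were seen.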

Additional observations from a re-analysis of the deposited data

How the results depend on the processing

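Across 9 other normalizations, filters and tests, the log2 fold change of Pdp2 lay between -0.73 and -0.70 and that of Idh1 between -0.50 and -0.47, with unadjusted p-values under 0.05 in each and adjusted p-values of 0.310 to 0.446 and 0.462 to 0.533 where one was given (DESeq2 gave none for either). Without any single library they lay between -0.80 and -0.63 and between -0.51 and -0.46. No member passed an adjusted p-value of 0.05 under any of these settings. The 1 member higher at an unadjusted p-value, Idh3b, was lost (0 members) with upper quartiles computed on filtered genes and with DESeq2, and the count ran from 0 to 0 without each library in turn. The 1 other pathway gene that was lower was also lost (0 genes) with DESeq2. Without each library in turn, the counts of the other pathway genes ran from 0 to 2 (lower) and from 1 to 2 (higher), the median log2 fold change of the members from -0.031 to 0.0044, and that of the other pathway genes from -0.0098 to 0.023. The sign turned for Mdh2 without vehicle replicate 1 (-0.0060, range -0.0060 to 0.033), for Idh3g without vehicle replicate 2 (0.0044, range -0.037 to 0.0044) and for Pdha1 without 5D replicate 1 (-0.033, range -0.033 to 0.12). These fits leave a group with 1 library, which is assumed to vary like the other group.

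With the replicate number as a block, the log2 fold changes of Pdp2, Idh1 and Idh3b were -0.71, -0.48 and 0.14 and 0 members passed an adjusted p-value of 0.05. Over all genes, 17 passed it in edgeR without the block, 41 with the block, 46 without a filter, 26 with filterByExpr, 32 with limma-voom, 58 with DESeq2, and 15 to 180 without each library in turn (180 without vehicle replicate 1 and 79 without vehicle replicate 2). The deviations of same-numbered libraries correlated at 0.0088 over the genes tested, and nothing in the labels pairs them. A pseudocount of 5 moved the 5 ratio differences by less than 0.02 on the log2 scale. Counting error limits Pdp2 and Idh1 most, at 5.66% to 7.98% per library.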
